A study of Mus musculus with 16 samples.

Results

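A set of 9 transcription factor genes that mark excitatory neurons and their subtypes were followed through 16 RNA-sequencing libraries of mouse primary hippocampal cultures. The 9 members are Neurod1, Neurod2, Neurod6, Tbr1, Prox1, Bcl11b, Fezf2, Emx1 and Zbtb20. They were chosen by name as markers of this lineage, with earlier results of these data known. Each was found under 1 Ensembl identifier among the 55385 genes of the files, and all 9 were among the 17222 genes with enough counts to be tested. The cultures were made from hippocampi of newborn C57Bl/6N mice, and every culture was infected with a recombinant adeno-associated virus carrying an shRNA and a GFP cassette driven by the chicken beta-actin promoter. The 4 groups received either Control-shRNA or an shRNA against Dnmt3a1, the long isoform of a de novo DNA methyltransferase, and were harvested at baseline or after 4 h of bicuculline, a blocker of GABA-A receptors that raises network firing. Each group has 4 libraries from separate neuronal preparations, numbered 1 to 4. RNA came from the whole dish, so neurons, glia and any uninfected cells are measured together, and fewer cells of a type cannot be told apart from less RNA per cell.

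Neurogenic bHLH factors of the NeuroD family bind E-box sequences as dimers with E proteins and drive precursors of the dorsal telencephalon towards a glutamatergic neuronal fate. Emx1 marks the pallial lineage from which these neurons arise, Zbtb20 sets hippocampal field identity, and Prox1 is the defining factor of dentate granule cells. Tbr1, Fezf2 and Bcl11b are best known from the neocortex, where they set apart corticothalamic and subcerebral projection neurons, with Bcl11b (also called Ctip2) acting downstream of Fezf2. Bcl11b also marks CA1 and dentate neurons in the hippocampus. Many of these genes stay on after the neuron has matured. The libraries do not show which cells of the dish held each member's RNA, GABAergic neurons and glia included.

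Levels are given as CPM, the count of a gene per 1000000 counts of its library after TMM scaling, for comparisons of 1 gene between libraries, or as TPM, which are also divided by transcript length and allow comparison between genes. A gene is called changed when the edgeR quasi-likelihood test gives a Benjamini-Hochberg adjusted p under 0.05 and the absolute log2 fold change is over 0.5. Totals lay between 28912697 and 29586355 counted pairs. The knockdown was present in the data, with Dnmt3a at 312.5 ± 13.8 CPM in control baseline and 44.5 ± 3.66 CPM in knockdown baseline cultures (SD, n = 4). The stimulus was present as well, since Fos, an activity-induced AP-1 subunit, rose from 10.3 ± 3.01 to 872 ± 139 CPM in control cultures. The defining excitatory markers Slc17a7, the vesicular glutamate transporter, and Camk2a were abundant, at 846 and 460 TPM in control baseline cultures. Microglial markers were nearly absent, with a summed level of 4.85 to 6.42 CPM over the 10 genes listed in control baseline libraries, no more than 6.81 CPM in any library, and Cx3cr1 and P2ry12 under 10 counts in every library. Astrocyte markers summed to 758 to 990 CPM in control baseline libraries and up to 1236 CPM in knockdown bicuculline ones, so the cultures were mixed.

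The sequences upstream of the 2 members that moved most, in opposite directions, were taken from the RefSeq promoter table of GRCm38.p6. All 9 members had an entry, in 10 windows of 250 bases before the annotated start. The window of Neurod6 (chr6:55681264-55681513, minus strand) holds no annotated exon and is shown whole, with its E-box matches in capitals. That of Fezf2 overlaps an exon of a longer Fezf2 transcript, so only 30 bases are shown (chr14:12345969-12345998, minus strand). The match to TGANTCA, where N is any base, is in capitals and reads TGAATCA.
Neurod6: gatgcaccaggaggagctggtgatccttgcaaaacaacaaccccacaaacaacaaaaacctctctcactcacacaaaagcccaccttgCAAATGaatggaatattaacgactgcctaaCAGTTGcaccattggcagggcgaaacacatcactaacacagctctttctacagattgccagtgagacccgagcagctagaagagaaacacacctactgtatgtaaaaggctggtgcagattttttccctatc
Fezf2: cccccaaagttgTGAATCAcccaaggaact
On both strands 5 motifs were searched: the E-box CANNTG, the cAMP response element TGACGTCA and the shorter TGACG that lies within it, TGANTCA and a MEF2 type motif. TGANTCA allows any base at its centre and so is looser than the AP-1 site, which has C or G there. The Fezf2 match has A there and is not that site. The E-box lies in the windows of 7 members, Neurod1, Neurod2, Neurod6, Tbr1, Prox1, Emx1 and Zbtb20, and in 66.2% of all 32851 windows of this length. TGANTCA lies in the Fezf2 window alone among the members and in 6.75% of all windows. TGACG lies only in that of Neurod2 among them and in 17.8% of all windows, and the Bcl11b window holds no match to any of the motifs searched. These matches describe letters and do not show binding.

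In unstimulated control cultures Neurod6 was the most abundant member, at 264 ± 44.6 TPM (SD, n = 4), followed by Neurod2 at 72.7 ± 4.5 TPM and Fezf2 at 55.1 ± 8.62 TPM. These upper levels did not overlap between libraries. Tbr1 at 33.9 TPM, Bcl11b at 31.2 TPM, Neurod1 at 26.8 TPM, Zbtb20 at 22.5 TPM and Emx1 at 20.5 TPM formed a run in which each overlapped the next. Prox1 was the lowest member, at 13.1 ± 3.28 TPM, with no overlap with Emx1. After 4 h of bicuculline the order changed at the top: Fezf2 was first in control cultures at 209 ± 31.5 TPM, with Neurod6 next at 93.8 ± 8.52 TPM and then Neurod2 at 62.1 ± 5.28 TPM, again without overlap. The same 3 genes led in the same order in knockdown cultures with bicuculline, at 242, 105 and 79.6 TPM.

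**Figure D1:**
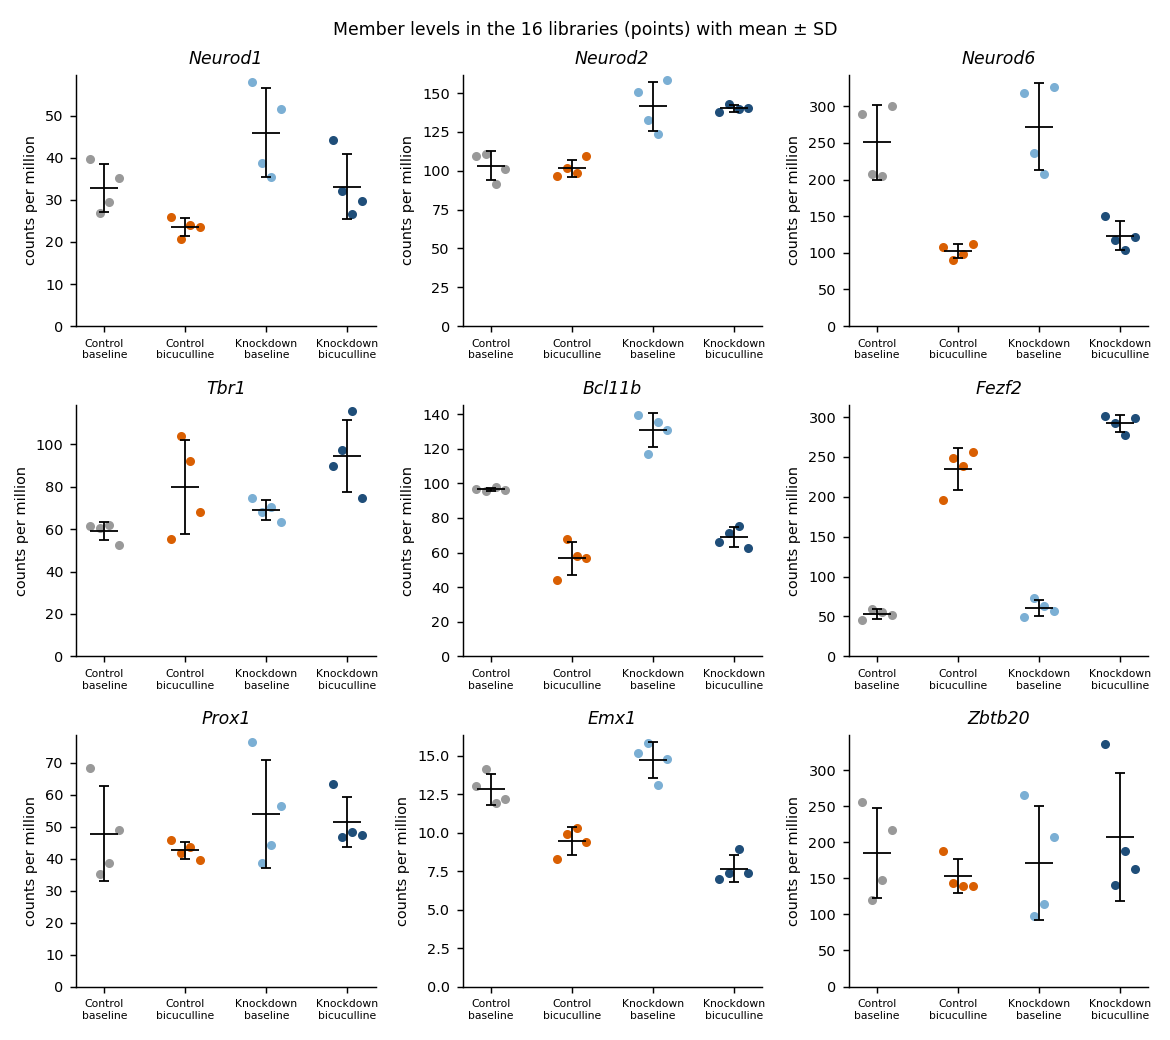
TMM-scaled CPM of each member (vertical axes from 0) in the 16 libraries, by group on the horizontal axis, with points for libraries 1 to 4 from left to right and the bar for mean ± SD. Fezf2 sits between 45.6 and 59.7 CPM in control baseline libraries and between 196 and 257 CPM with bicuculline, while Neurod6 and Bcl11b are lower with bicuculline in every library of both shRNAs.

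Bicuculline was the treatment under which members changed most. In control cultures 3 of 9 were called: Fezf2 rose 4.40-fold, Neurod6 fell to 0.408 and Bcl11b to 0.586 of the baseline level. Over all tested genes 10.8% were called higher and 11.1% lower. In knockdown cultures the calls were Fezf2 higher and Neurod6, Bcl11b and Emx1 lower, with 12.6% of all genes called higher and 13.2% lower. By the adjusted p alone, without the limit on fold, 6 members passed in each shRNA (Neurod1, Neurod6, Tbr1, Bcl11b, Fezf2 and Emx1), beside 41.4% of all genes in control and 46.0% in knockdown cultures. Baseline and bicuculline libraries did not overlap for 5 members in control cultures (Neurod1, Neurod6, Bcl11b, Fezf2 and Emx1), beside 39.7% of all genes. In knockdown cultures they did not overlap for 5 as well (Neurod6, Tbr1, Bcl11b, Fezf2 and Emx1), beside 40.4%. The median log2 fold change of the 9 was -0.28 in control and -0.07 in knockdown cultures, while that of all tested genes was 0.01 and -0.01.

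**Figure D2:**
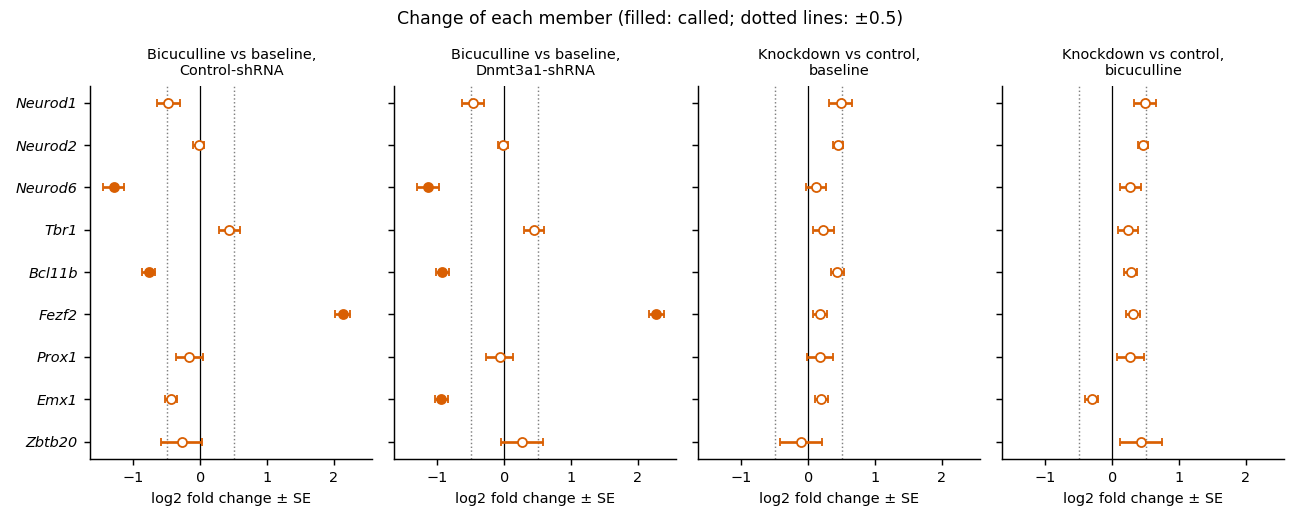
Log2 fold change of each member (horizontal axis, with bars for the standard error of the edgeR fit) in the 4 comparisons, with filled points for called changes and dotted lines at 0.5 in either direction. Fezf2 lies at 2.14 and 2.28 with bicuculline, and no point is filled in the knockdown comparisons.

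Fezf2, a zinc finger repressor that specifies subcerebral projection neurons, measured 45.6, 59.7, 56.2 and 52.1 CPM in control baseline libraries 1 to 4 and 196, 248, 239 and 257 CPM in the control bicuculline ones. The lowest stimulated value was over 3 times the highest unstimulated one. The log2 fold change was 2.14 ± 0.11 (SE, adjusted p = 1.2e-10, edgeR). In knockdown cultures the levels were 48.9, 72.5, 63.5 and 56.5 CPM at baseline and 301, 292, 278 and 298 CPM with bicuculline, a log2 fold change of 2.28 ± 0.11 (adjusted p = 4.1e-11). The difference between the shRNAs in this response was 0.14 ± 0.15 on the log2 scale (adjusted p = 1.0). In the edgeR fit Fezf2 was the only member with a called increase.

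Bcl11b, a zinc finger factor of subcerebral, CA1 and dentate neurons, moved the other way. It stood at 97.0, 95.3, 97.7 and 96.4 CPM in control baseline libraries, with little spread. With bicuculline it measured 44.1, 67.7, 57.8 and 56.8 CPM, all below baseline, for a log2 fold change of -0.77 ± 0.10 (adjusted p = 5.6e-06). Knockdown cultures went from 140, 117, 136 and 131 CPM to 66.2, 71.1, 75.6 and 62.4 CPM, a log2 fold change of -0.93 ± 0.10 (adjusted p = 5.1e-07). The ratio of Fezf2 to Bcl11b transcripts, on the TPM scale, was 1.53 to 1.93 in control baseline libraries and 11.2 to 14.0 with bicuculline. In knockdown libraries it went from between 1.10 and 1.98 to between 11.2 and 14.7.

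Tbr1, a T-box factor of early-born and corticothalamic glutamatergic neurons, passed the adjusted p but not the limit on fold in both shRNAs. Control baseline libraries held 61.4, 60.5, 61.7 and 52.6 CPM, and control bicuculline libraries 55.5, 104, 92.3 and 68.1 CPM, so library 1 with bicuculline lay among the baseline values. The log2 fold change was 0.44 ± 0.16 (adjusted p = 0.031), and 0.57 (adjusted p = 0.0027) without that library, which would be called. It lost the adjusted p without control bicuculline library 2 (0.28, adjusted p = 0.14) or 3 (0.36, adjusted p = 0.10) and without control baseline library 1, 2 or 4 (adjusted p = 0.0501, 0.053 and 0.088). It also did so in voom with limma (0.40, adjusted p = 0.053), with only the 2 groups fitted (0.44, adjusted p = 0.053), with library sizes only (0.28, adjusted p = 0.19) and on the log2(TPM + 1) scale (0.20, adjusted p = 0.39). In knockdown cultures Tbr1 went from 74.6, 67.9, 70.4 and 63.5 CPM to 89.7, 97.2, 116 and 74.8 CPM without overlap, with a log2 fold change of 0.45 ± 0.15 (adjusted p = 0.025). Leaving out knockdown bicuculline library 4 gave 0.54 (adjusted p = 0.011), and the adjusted p was 0.056 and 0.10 without knockdown bicuculline library 2 or 3, 0.068 without knockdown baseline library 4, 0.15 with library sizes only and 0.27 on the log2(TPM + 1) scale. Of 3 genes described as Tbr1 targets in neocortex, Reln, Grin2b and Auts2, none was called in control cultures. Reln, the secreted signal of Cajal-Retzius cells and interneurons, rose by 0.51 on the log2 scale in knockdown cultures (adjusted p = 0.0025) and had a log2 fold change of 0.25 (adjusted p = 0.12) in control cultures. These Reln changes are not shown to differ, with an interaction of 0.26 ± 0.17 on the log2 scale (unadjusted p = 0.16, edgeR).

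The 3 NeuroD genes, which share a bHLH domain, did not move alike with bicuculline. Neurod6 (also called Math2 or Nex), the member most restricted to postmitotic pyramidal neurons, measured 289, 208, 205 and 301 CPM in control baseline and 108, 90.4, 98.4 and 112 CPM in control bicuculline libraries. All stimulated libraries were lower, with a log2 fold change of -1.29 ± 0.16 (adjusted p = 4.0e-06). In knockdown cultures it went from 318, 236, 208 and 326 CPM to 151, 117, 104 and 122 CPM, a log2 fold change of -1.14 ± 0.16 (adjusted p = 1.2e-05). Libraries 1 and 4 were the high ones at baseline in both shRNAs.

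Neurod2, which acts in synapse maturation of cortical and hippocampal neurons, had much the same CPM with and without the stimulus. It stood at 110, 111, 91.6 and 101 CPM in control baseline and 96.7, 102, 98.8 and 109 CPM in control bicuculline libraries, with a log2 fold change of -0.02 ± 0.08 (adjusted p = 0.83). The knockdown log2 fold change was -0.01 ± 0.08 (adjusted p = 0.90). On the log2(TPM + 1) scale, tested with limma, it was -0.23 in control (adjusted p = 0.028) and -0.20 in knockdown cultures (adjusted p = 0.047). Both stay within the limit on fold, and the medians of all genes on that scale were -0.14 and -0.13. The ratio of Neurod6 to Neurod2 transcripts on the TPM scale dropped from between 2.82 and 4.49 to between 1.33 and 1.68 in control libraries, without overlap. In knockdown libraries it dropped from between 2.53 and 3.19 to between 1.12 and 1.65.

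Neurod1, the family member required for dentate granule cell formation, lay between them. Its levels were 39.7, 26.9, 29.6 and 35.1 CPM in control baseline and 26.0, 20.7, 24.0 and 23.6 CPM in control bicuculline libraries, which do not overlap. The log2 fold change was -0.48 ± 0.17 (adjusted p = 0.031), within the limit on fold. In knockdown cultures it went from 57.9, 38.8, 35.5 and 51.6 CPM to 44.1, 32.1, 26.6 and 29.7 CPM, overlapping, with a log2 fold change of -0.47 ± 0.17 (adjusted p = 0.028). Leaving out control baseline library 2 or 3 or control bicuculline library 1 carried the control value past the limit, at -0.52 to -0.56, as did leaving out knockdown baseline library 2 or 3 or knockdown bicuculline library 1 for the knockdown value, at -0.54 to -0.64. In the other direction, the control value lost the adjusted p without control baseline library 1 or 4 (-0.37 and -0.44, adjusted p = 0.11 and 0.073) and without control bicuculline library 2, 3 or 4 (adjusted p = 0.085, 0.055 and 0.051). The knockdown value lost it without knockdown baseline library 1 or 4 (-0.34 and -0.41, adjusted p = 0.11 and 0.080), without knockdown bicuculline library 2, 3 or 4 (adjusted p = 0.056, 0.084 and 0.073), and with only the 2 groups fitted (adjusted p = 0.053). The Neurod1 gene lies within a region shared with Cerkl and the opposite-strand Gm26755, and the strand setting of the libraries is not given in the sources used here, so reads of such overlapping genes may not be separable. Prox1 and Zbtb20 also have annotated opposite-strand partners.

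Emx1, a homeobox factor of the pallial lineage, was the lowest member by counts. Control baseline libraries held 13.0, 14.1, 11.9 and 12.2 CPM and control bicuculline libraries 8.26, 9.91, 10.3 and 9.37 CPM, all lower, with a log2 fold change of -0.44 ± 0.10 (adjusted p = 0.0014) that stays within the limit on fold. On the log2(TPM + 1) scale it was -0.61 (adjusted p = 0.00042), which would be called. There the median of all genes was -0.14 and 71.4% of calls were lower. In knockdown cultures the levels went from 15.2, 15.8, 13.1 and 14.8 CPM to 6.97, 7.37, 8.91 and 7.39 CPM, and the fall was called, at -0.94 ± 0.10 (adjusted p = 4.5e-07). The 2 falls are not shown to differ: the interaction was -0.50 ± 0.14 on the log2 scale, with an unadjusted p of 0.0018 and an adjusted p of 0.59.

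Prox1, the granule cell factor, did not pass in any comparison. Control baseline libraries held 68.3, 35.2, 38.6 and 49.1 CPM and control bicuculline libraries 45.8, 41.7, 43.7 and 39.6 CPM, with a log2 fold change of -0.16 ± 0.20 (adjusted p = 0.56). Its spread at baseline was wide, with library 1 highest in both shRNAs. In knockdown cultures it measured 76.5, 38.5, 44.2 and 56.6 CPM at baseline and 63.4, 46.7, 48.4 and 47.5 CPM with bicuculline, a log2 fold change of -0.07 ± 0.20 (adjusted p = 0.82).

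Zbtb20, a zinc finger repressor of hippocampal field identity, gave different directions on the 2 scales. By counts, control libraries held 256, 121, 148 and 217 CPM at baseline and 188, 144, 139 and 140 CPM with bicuculline, with a log2 fold change of -0.28 ± 0.31 (adjusted p = 0.52). In knockdown cultures it went from 266, 98.5, 115 and 208 CPM to 337, 140, 187 and 163 CPM, a log2 fold change of 0.27 ± 0.31 (adjusted p = 0.52). On the log2(TPM + 1) scale, tested with limma, the changes were 0.29 (adjusted p = 0.41) and 0.75 (adjusted p = 0.027), and the second would be called.

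The difference between scales lies in the transcript length assigned to the gene. Zbtb20 has 21 annotated transcripts between 267 and 26901 nt, 12 of them protein coding, and the ratio of count to TPM gives their average length in each library as the quantification weighed them. The calculation was scaled on genes with 1 transcript, and for 97.8 to 98.5% of 712 to 816 such genes in each library it returned the annotated length within 1%. Since the same genes set the scale, this checks the arithmetic only and not the weighing among Zbtb20 transcripts. For Zbtb20 the calculation gave 15828 to 18956 nt in control baseline and 9739 to 11976 nt in control bicuculline libraries. Knockdown libraries went from 13486 to 19127 nt down to 8953 to 10660 nt, and neither pair of groups overlaps. Prox1 showed a far smaller shift in control libraries, from 7608 to 7827 nt down to 7159 to 7553 nt. The exact two-sided permutation p was 0.0286 for each of the Zbtb20 comparisons and for Prox1 in both shRNAs, the smallest that 4 against 4 libraries allow, and 0.171 after adjustment over 24 such comparisons of the 6 members with several transcripts. This length was examined after the values were seen, and it rests on how kallisto divided reads between transcripts.

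**Figure D3:**
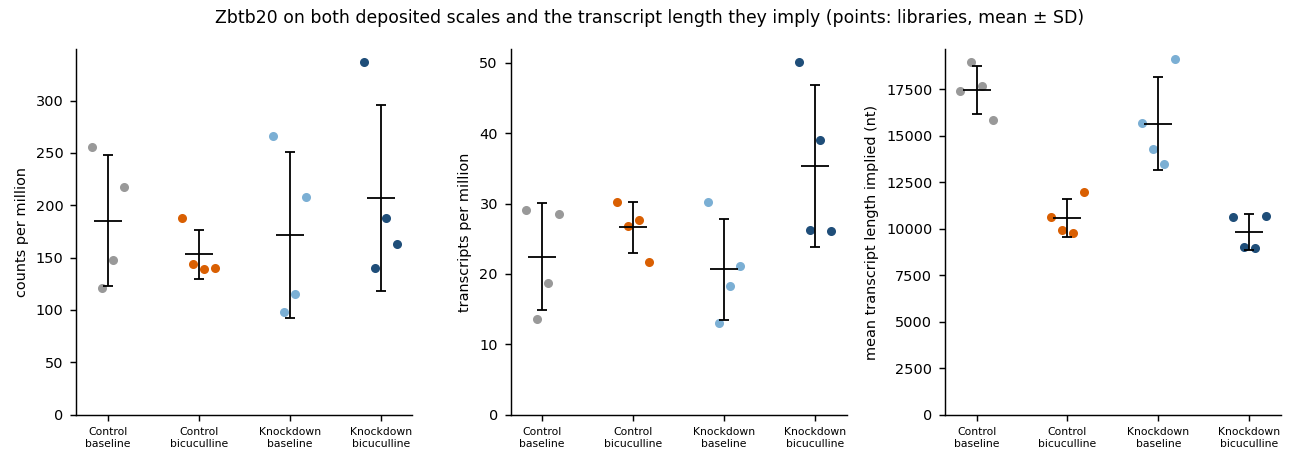
Zbtb20 in the 16 libraries as CPM, as TPM and as the mean transcript length in nt that the 2 scales imply (vertical axes from 0), with groups on the horizontal axis, points for libraries and bars for mean ± SD. The counts overlap between baseline and bicuculline, while the implied length is lower in every bicuculline library, at 8953 to 11976 nt against 13486 to 19127 nt.

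After knockdown of Dnmt3a1, none of the 9 was called at baseline or with bicuculline in the edgeR fit, where 5.83% and 5.89% of all tested genes were, so that a count of 0 among 9 does not set the members apart. By the adjusted p alone 2 members passed in each condition, beside 16.3% of genes at baseline and 17.7% with bicuculline. At an unadjusted p under 0.05 the counts were 4 members at baseline and 5 with bicuculline, beside 28.8% and 31.2% of genes. DESeq2 called 0 and 1 and voom with limma called 0 and 0. Leaving out single libraries brought the edgeR count to at most 2 at baseline and 1 with bicuculline. Control and knockdown libraries did not overlap for Neurod2, Tbr1 and Bcl11b at baseline, where 19.9% of genes did not, and for Neurod1, Neurod2, Prox1 and Fezf2 with bicuculline, where 20.9% did not.

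Neurod2 passed the adjusted p in both conditions. It measured 150, 133, 124 and 159 CPM in knockdown baseline libraries, all above the control baseline values given above, with a log2 fold change of 0.45 ± 0.08 (adjusted p = 0.00056). With bicuculline the knockdown libraries held 138, 143, 140 and 140 CPM, again all above the control ones, with 0.46 ± 0.08 (adjusted p = 0.00047). Both changes amount to 1.37-fold and 1.38-fold and stay within the limit on fold.

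Bcl11b was higher in all knockdown baseline libraries than in all control ones, by 0.44 ± 0.10 on the log2 scale (adjusted p = 0.0047), and by 0.28 ± 0.10 with bicuculline (adjusted p = 0.056), where the groups overlap. Neurod1 had log2 fold changes of 0.49 ± 0.17 in both conditions (adjusted p = 0.055 each). With a replicate block its adjusted p was 0.00088 at baseline, beside 27.5% of all genes under 0.05 in that fit. The adjusted p of Bcl11b at baseline was 0.16 on the log2(TPM + 1) scale. With bicuculline Emx1 was lower, by -0.31 ± 0.10 (adjusted p = 0.042), which rose to between 0.052 and 0.12 without any 1 of 8 single libraries. The adjusted p of Emx1 was also 0.058 in voom with limma, 0.098 without the low-count filter and 0.089 with only the 2 groups fitted. Fezf2 stood at 0.32 ± 0.11 (adjusted p = 0.051) without overlap. For Fezf2 the adjusted p was 0.041 in voom with limma, 0.023 in DESeq2 and 0.024 with only the 2 groups fitted. In DESeq2 that of Neurod1 and of Bcl11b with bicuculline was 0.024. Neurod6, Tbr1, Prox1 and Zbtb20 had adjusted p of 0.257 or more in both conditions without the block. With it, Neurod6, Fezf2, Bcl11b and Neurod1 with bicuculline had adjusted p of 0.017, 0.0039, 0.028 and 0.0013, all within the limit on fold.

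The test of whether knockdown altered the bicuculline response called none of the members, and none of the 17222 genes (0.0%, edgeR), the smallest adjusted p being 0.147. At an unadjusted p under 0.05 there were 852 genes, 4.95% of those tested, with Emx1 the single member. Over all genes DESeq2 called 17 and voom with limma 0. The baseline and bicuculline comparisons share their libraries between contrasts, so the 4 comparisons are not independent of each other.

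Genes that work beside the members were read from lists chosen with earlier results of these data known. Among 21 bHLH partners and antagonists, 17 were tested and 5 rose and 1 fell with bicuculline in control cultures. Id2 and Id1, which bind E proteins and keep them from NeuroD factors, rose by 1.25 ± 0.11 and 1.04 ± 0.26 on the log2 scale (adjusted p = 1.0e-07 and 0.0031). Id2 went from 68.3 to 162 CPM, but Id1 from only 0.598 to 1.24 CPM. Hes5, a Notch target that represses proneural genes, fell by 0.90 (adjusted p = 0.0050), from only 1.20 to 0.640 CPM. Bhlhe22, a bHLH factor of projection neurons, rose by 0.79 (adjusted p = 0.0020). In knockdown cultures 8 rose and 1 fell. The medians were 0.28 and 0.37.

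Of 17 pallial progenitor factors, 16 were tested and 6 rose and 1 fell in control cultures, with a median of 0.47. Emx2, the close relative of Emx1, rose by 1.58 ± 0.09 on the log2 scale (adjusted p = 2.2e-10), from 8.48 ± 0.81 to 25.4 ± 1.29 CPM (SD, n = 4), where Emx1 went down. Lef1, the transcription factor of canonical Wnt signalling, rose by 1.26 (adjusted p = 0.00053) and Sox11 by 1.24 (adjusted p = 1.5e-06). The level of Lef1 was low, going from 0.755 to 1.82 CPM. In knockdown cultures 6 rose and none was called lower by edgeR, with 2 lower at the adjusted p alone. Eomes, the marker of intermediate progenitors, was below 10 counts in every library and was not tested. The 8 proliferation markers summed to no more than 3.95 CPM in any library.

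All 28 projection neuron factors were tested. In control cultures 8 rose and 1 fell, with a median of 0.16, and in knockdown cultures 8 rose and 3 fell. Rorb, a nuclear receptor of layer 4 neurons, rose most, by 1.89 ± 0.23 on the log2 scale (adjusted p = 3.0e-06), but from only 2.09 to 7.78 CPM. Zbtb18, a zinc finger repressor needed for cortical neuron development, fell by 1.07 (adjusted p = 5.7e-09), from 350 ± 26.1 to 167 ± 4.55 CPM, beside the falls of Neurod6 and Bcl11b. Nr2f2 and Nr2f1 (COUP-TFII and COUP-TFI) rose by 0.92 and 0.91 (adjusted p = 2.1e-08 and 1.6e-09).

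**Figure D4:**
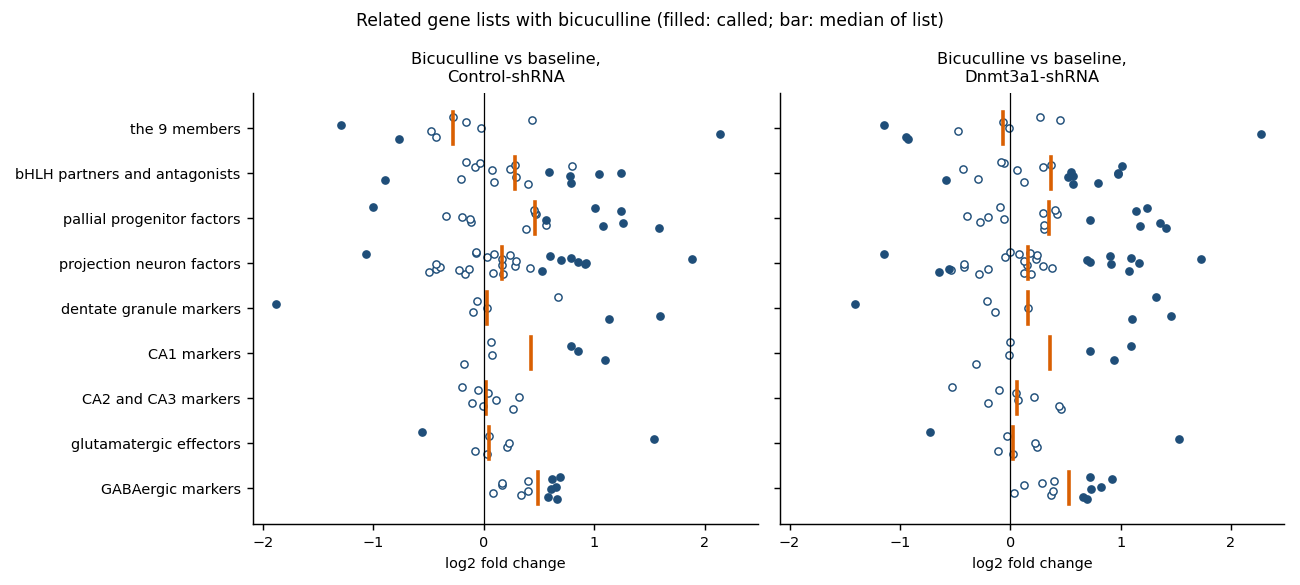
Log2 fold change with bicuculline (horizontal axis) of the 9 members and of the tested genes of 8 related lists (vertical axis), in Control-shRNA on the left and Dnmt3a1-shRNA on the right, 1 point per gene, filled where called, with a bar at each list's median. In control cultures the members' median is -0.28, and the medians of the lists lie between 0.02 and 0.49.

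Markers of hippocampal fields did not move as blocks. Of 8 dentate granule markers, 7 were tested, and in control cultures C1ql3 and C1ql2, secreted synaptic organisers, rose by 1.60 and 1.14 on the log2 scale while Dsp, desmoplakin, fell by 1.88 (adjusted p = 1.8e-09, 3.2e-06 and 1.3e-06). Of 6 CA1 markers 3 rose, led by Man1a at 1.09 (adjusted p = 1.4e-05). Pou3f1, which is also on the projection neuron list, rose by 0.85 (adjusted p = 0.0070). None of 8 CA2 and CA3 markers was called in control cultures by edgeR, with 0 at the adjusted p alone. Of 7 glutamatergic effectors, Slc17a6, the second vesicular glutamate transporter, rose by 1.54 (adjusted p = 4.7e-07) and Sv2b, a synaptic vesicle protein, fell by 0.56 (adjusted p = 0.0010). Slc17a7 and Camk2a had log2 fold changes of 0.04 and 0.02 (adjusted p = 0.75 and 0.80).

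Markers of other cells moved with the stimulus too. The 12 GABAergic markers summed to 1853 to 2192 CPM in control baseline and 2743 to 3104 CPM in control bicuculline libraries, and 6 of 12 were called higher in each shRNA, among them Vip, Gad2 and Sst at 0.69, 0.65 and 0.62 on the log2 scale in control cultures. Astrocyte markers summed to 778 to 1080 CPM in control bicuculline libraries, overlapping baseline, and 1 of 11 tested, Sox9, rose (1.09, adjusted p = 8.1e-05). Pan-neuronal markers summed to 8668 to 9572 CPM at baseline and 10590 to 11230 CPM with bicuculline, with Nefl and Nefm higher and Tubb3 lower (1.25, 0.74 and -0.77 on the log2 scale). In fibroblast and vessel markers 2 of 10 tested were called higher, Pdgfrb and Col1a2, and 4 with a replicate block. Oligodendrocyte lineage markers had 1 call of 8 tested, Mog, at -0.83, from only 1.31 to 0.737 CPM. Cajal-Retzius, microglia and proliferation markers had 0 calls in control cultures by edgeR, and 1 each with a replicate block. The part of these markers in the members' changes was not tested.

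Knockdown also moved some genes of these lists. At baseline Nfib, a pallial glial and neuronal differentiation factor, was higher by 0.68 and Sox11 by 0.52 on the log2 scale (adjusted p = 0.012 and 0.015). Foxp1, a forkhead factor of projection neurons, was lower by 0.51 on that scale (adjusted p = 6.5e-05), the single call of 28 in its list, and 2 were called with a replicate block. Wfs1, a CA1 marker, was higher by 0.61 (adjusted p = 0.00078) and C1ql3 by 0.54 (adjusted p = 0.0017). Among CA2 and CA3 markers Sostdc1 and Iyd were higher by 1.001 and 0.58 and Bok lower by 0.50 (adjusted p = 0.014, 0.047 and 0.011). Sostdc1 and Iyd had low levels, going from 0.756 to 1.52 CPM and from 1.66 to 2.48 CPM. In the bHLH list there was no edgeR call at baseline, 1 with a replicate block and 1 gene at the adjusted p alone. Of the GABAergic markers Dlx5, Pvalb and Sst were lower, by 0.98, 0.55 and 0.52, and the summed level was 1481 to 1684 CPM against 1853 to 2192 CPM in control baseline libraries. In the astrocyte list S100b was higher by 0.82, the single call of 11, and 3 were called with a replicate block. S100b stood at only 0.750 CPM in control baseline and 1.33 CPM in knockdown baseline cultures. The astrocyte sums overlapped, at 789 to 1151 CPM in knockdown baseline and 758 to 990 CPM in control baseline libraries. GABAergic calls were lower with the same shRNA with which Neurod2 and Bcl11b were higher. The part of either list in the members' changes was not tested.

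Further calls in these lists were as follows. Knockdown baseline cultures also had Pdgfrb and Tubb3 higher by 0.75 and 0.51 on the log2 scale and Csf1r, a microglial receptor, lower by 0.66. With bicuculline, knockdown cultures had Nfib, Sox4, Hey1, Wfs1 and Bhlhe22 higher than control cultures by 0.67, 0.62, 0.61, 0.54 and 0.55, S100b, Lum and Slc4a4 higher by 0.84, 0.67 and 0.51, and Dlx5 and Csf1r lower by 1.03 and 0.75. The bicuculline response of knockdown cultures included Tdo2 and Nhlh2, a granule cell and a Cajal-Retzius marker, at 1.32 and 1.01, Itgam at 1.04 and Cenpf at -0.63. Levels were low for Tdo2 (0.93 to 2.34 CPM), Itgam (0.322 to 0.672 CPM) and Cenpf (1.22 to 0.788 CPM).

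The genes whose levels over the 16 libraries were most like each member were found among 9238 genes of at least 10 CPM, as a description. The closest of all was Cry2, a circadian repressor, to Fezf2, at a Pearson r of 0.994 and 0.660 once group means were removed. Bcl11b was most like Wwc2 (0.986, and 0.838 within groups) and Neurod6 most like Creb1, the cAMP response element binding factor (0.972 and 0.817). Emx1 was most like Rusc2 (0.980 and 0.896), Neurod2 most like Rnf157 (0.972 and 0.805), Neurod1 most like Lgr4 (0.957 and 0.889) and Zbtb20 most like Map1b (0.947 and 0.953). Whether libraries of different groups share preparations is not stated, and the first value of each pair contains the difference between groups. Prox1 was much like Agfg1 (0.901 and 0.941) and Tbr1 most like Chrm4 (0.937 and 0.927), so these followed the member within groups about as closely as across them.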

How the data were processed

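RNA was sequenced from 16 libraries of hippocampal cultures as 100 bp paired-end reads. The authors trimmed reads with Trim Galore (0.6.4), quantified them with kallisto on GRCm38.p6, and deposited estimated counts per gene, summed over transcripts, and TPM values scaled for transcript length and library total. Identifiers were matched to GENCODE release M21 without their version (55144 of 55385). Here the estimated counts were rounded and tested with edgeR (4.0.16, R 4.3.3): TMM scaling, filterByExpr by group, and 1 quasi-likelihood fit of the 4 groups, adjusted over 17222 genes. Limma (3.58.1) and DESeq2 (1.42.0) served as alternatives. Scripts were tested on simulated data. No library pair within a group agreed within sampling noise. All 9 members are named with every library. From each list, called genes are named, or the 4 with the largest change where more were called, and some genes the rule would name are not reported here. Members, lists and the naming rule were chosen with earlier results of these data known. Same-numbered libraries deviated together between control baseline and control bicuculline (r 0.142 to 0.221) and between the baseline groups (0.204 to 0.355), so a replicate block was fitted as an alternative. The labels number the libraries but do not state that a number marks 1 preparation.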

Additional observations from a re-analysis of the deposited data

Results flagged for a closer look

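In 3 of 36 sets of 4 libraries (9 members in 4 groups), 1 library lay far from the rest of its group, and chance alone flags about 1 in 20 sets. Tbr1 measured 52.6 CPM in control baseline library 4, where the other three held 60.5 to 61.7 CPM. Prox1 measured 63.35 CPM in knockdown bicuculline library 1, where the other three held 46.7 to 48.4 CPM. Zbtb20 measured 188.3 CPM in control bicuculline library 1, where the other three held 139 to 144 CPM.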

How the results depend on the processing

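Each result was recomputed under other scalings, filters, tests and thresholds, with a replicate block, and without each library in turn. The calls of Fezf2, Neurod6 and Bcl11b with bicuculline held under all of these in both shRNAs, apart from the fold limit of 1 for Bcl11b, as did that of Emx1 in knockdown cultures apart from the same limit. The number of members called with bicuculline in control cultures was 3 in the main analysis, 5 with library sizes only and on both TPM scales (adding Neurod1 and Emx1), 6 without a limit on fold, and 5 without control bicuculline replicate 1 (range 3 to 5). With library sizes only the median of all genes was -0.15 and 4397 of 17222 were called, 69.0% of them lower against 50.8% in the main analysis. On the log2(TPM + 1) scale the median was -0.14 and 3679 were called, 71.4% of them lower. For knockdown cultures on that scale the median was -0.13, with 69.4% of calls lower. In knockdown cultures the number was 4, 5 with library sizes only (adding Neurod1), 6 on both TPM scales (adding Neurod1 and Zbtb20), 6 without a limit on fold, 2 at a fold limit of 1, and 4 to 5 when leaving out 1 library. For knockdown at baseline it was 0, 2 without a limit on fold, and 0 to 2 when leaving out 1 library: 1 without knockdown replicate 2 (Neurod1), 2 without knockdown replicate 3 (Neurod1 and Neurod2) and 1 without control replicate 1 (Neurod1). With bicuculline it was 0, 2 without a limit on fold, 1 in DESeq2 (Neurod1, 0.50), and 1 without knockdown bicuculline replicate 3 (Neurod1) or control bicuculline replicate 4 (Neurod2). With the replicate block the numbers of members called stayed at 3, 4, 0, 0 and 0, and the block changed no other member's call. In the blocked fit Neurod1 reached an adjusted p of 0.00088 at baseline, and 3 members were under 0.05 at baseline, beside 27.5% of all genes in that fit, and 6 with bicuculline, beside 30%. Control and knockdown bicuculline libraries with the number 4 correlated at 0.0667 and knockdown baseline and bicuculline ones at 0.0631, so there the number is a hint only. Sign changes occurred in values that passed neither in the main fit nor in the setting that turned the sign. Some passed the adjusted p elsewhere. On the log2(TPM + 1) scale Neurod2 with bicuculline was lower in both shRNAs (adjusted p = 0.028 and 0.047, limma), and Zbtb20 was higher in knockdown cultures (adjusted p = 0.027). Zbtb20 with bicuculline in control cultures was 0.29 and 0.30 on the TPM scales, and Neurod2 in knockdown cultures was 0.0038 in DESeq2, 0.011 with DESeq2 size factors and 0.0022 with at least 10 counts everywhere. Neurod6 for knockdown at baseline was -0.00024 and -0.00025 on the TPM scales, and the Neurod1 interaction was -0.0067 in voom and -0.0039 with the block. Leaving out 1 library turned the sign of Neurod2 (-0.0785 to 0.0119 in control and -0.0729 to 0.045 in knockdown cultures with bicuculline), Prox1 (-0.28 to 0.0595, -0.20 to 0.15, and -0.0407 to 0.40 for knockdown at baseline) and Zbtb20 (-0.0746 to 0.56 with bicuculline in knockdown cultures, and -0.40 to 0.0857 for knockdown at baseline). For the interaction it turned Neurod1 (-0.16 to 0.14), Neurod2 (-0.0485 to 0.0696), Tbr1 (-0.13 to 0.16) and Prox1 (-0.13 to 0.31). The cause was not tested. No member was removed by the filter, so the alternative for removed members was not run.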
